A study of Mus musculus with 2 samples.

Results

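The expression of 5 genes of cellular zinc handling was followed through single-cell RNA libraries of cultured mouse hematopoietic stem cells (HSC), with and without the iron chelator deferoxamine (DFO). They are the metallothioneins Mt1 and Mt2, the zinc-sensing transcription factor Mtf1, the zinc exporter Slc30a1 and the zinc importer Slc39a1. These 5 were taken by symbol from the 14366 genes of the deposited tables, and all 5 were in both tables. They were picked with the difference between the libraries already known, so that difference is given here as a description.

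HSC were the CD150+ CD48- fraction of lineage-depleted marrow cells bearing c-Kit and Sca-1, taken from 8 wildtype C57/B6 mice, pooled, aged 6 to 8 weeks. Both groups were cultured for 48 h in thrombopoietin at 50 ng/ml and stem cell factor at 100 ng/ml, 1 with 10 µM DFO and 1 with sterile water as vehicle, and 20000 live cells of each were loaded for droplet sequencing of transcript 3′ ends. The comparison asks how HSC exposed to an iron chelator differ in transcripts from HSC exposed to vehicle. Each group is 1 library, that both came from 1 sort is not stated per library, and the cells were profiled after culture, not straight from the sort.

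The tables held 8708 vehicle and 9852 DFO cells, with 260938938 and 284326017 molecules and medians of 27805.5 and 27114 molecules per cell. The libraries shared 24 cell barcodes. Of 21 HSC marker genes, 17 in the vehicle and 16 in the DFO library stood at 5 CPM (molecules per 1000000 of the library) or more, with summed levels of 2792 and 2870 CPM, so the labelled cell type had its markers. Megakaryocyte markers were also present. Of 12 such markers, 11 were in the tables (Gp6 was not among them), with 8 at 5 CPM or more in the vehicle and 7 in the DFO library, and their summed level was 2084 and 1088 CPM. The remaining marker lists summed to 909 and 873 CPM for erythroid, 266 and 245 CPM for neutrophil and monocyte, 43.3 and 41.5 CPM for stromal or endothelial, and at most 10.4 CPM for mast, eosinophil, lymphoid and macrophage markers.

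Metallothioneins are small cysteine-rich proteins that bind zinc, copper and cadmium and buffer the free zinc of the cytosol. When free zinc rises, the zinc-finger protein encoded by Mtf1 binds metal response elements in promoters and raises transcription of the metallothionein genes and of Slc30a1. Slc30a1 encodes ZnT1, which exports zinc across the plasma membrane, and Slc39a1 encodes ZIP1, which imports it. Metallothionein genes also respond to glucocorticoids and oxidative stress.

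The 2 metallothionein genes lie side by side on chromosome 8. In the GENCODE annotation of GRCm38, Mt2 spans chr8:94172664-94173568 and Mt1 spans chr8:94179082-94180327, both protein-coding on the plus strand, with 5513 bases between the end of Mt2 and the start of Mt1. Their transcripts share 0 stretches of 31 bases, so a read of one does not match the other over that length. Mt2 overlaps the antisense gene Gm45774, Slc30a1 (chr1:191906767-191913247, plus strand) overlaps the antisense gene 1700034H15Rik, and Mtf1 (chr4:124802104-124849800, plus strand) overlaps 1110065P20Rik on the other strand. Whether counting used strand was not stated, so whether reads of these pairs were kept apart is not known here. Slc39a1 lies at chr3:90248172-90253612 on the plus strand.

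Of the 5 members, 3 carry the core of the metal response element within 250 bases before or 50 bases after their RefSeq transcript start. Their promoter stretches are printed because this element is the sequence through which the zinc-sensing factor is known to act. Cores outside this window, or at another transcript start of the same gene, were not sought. Each is the 250 bases before the RefSeq transcript start on GRCm38.p6, plus strand, read 5′ to 3′, at chr8:94178839-94179088 for Mt1, chr8:94172368-94172617 for Mt2 and chr1:191906531-191906780 for Slc30a1. Relative to the GENCODE starts, these transcript starts lie at 7, -46 and 14 bases. Capitals mark the core, TGCACNC or TGCGCNC, found on either strand, so a core of the minus strand appears as its reverse complement.
Mt1: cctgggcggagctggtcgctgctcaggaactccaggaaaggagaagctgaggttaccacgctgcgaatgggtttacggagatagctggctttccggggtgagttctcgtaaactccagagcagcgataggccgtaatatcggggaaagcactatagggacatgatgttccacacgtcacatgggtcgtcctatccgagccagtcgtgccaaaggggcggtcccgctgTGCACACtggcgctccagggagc
Mt2: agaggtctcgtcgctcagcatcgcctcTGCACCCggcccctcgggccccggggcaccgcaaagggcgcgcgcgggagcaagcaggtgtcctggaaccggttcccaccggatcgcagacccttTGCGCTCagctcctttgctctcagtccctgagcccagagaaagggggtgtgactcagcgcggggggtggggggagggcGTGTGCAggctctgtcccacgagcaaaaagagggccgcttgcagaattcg
Slc30a1: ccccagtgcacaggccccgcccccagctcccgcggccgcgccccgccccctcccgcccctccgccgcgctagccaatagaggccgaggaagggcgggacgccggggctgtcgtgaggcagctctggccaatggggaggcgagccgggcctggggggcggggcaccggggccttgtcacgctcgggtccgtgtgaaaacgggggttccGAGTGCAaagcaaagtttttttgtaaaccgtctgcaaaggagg
Mt1 has 1 core before the start, 23 to 17 bases upstream. Its other 2 lie in the 50 bases after this RefSeq start, within chr8:94179091-94179115, and are shown because most of the cores found in this window of Mt1 stand there. Before and after hold for the annotated start only. Which start of Mt1 the cells used was not examined, so where these cores lie relative to it is not known here.
Mt1 after the start: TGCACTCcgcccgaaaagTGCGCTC
Mt2 has 3 cores before the start, at 223, 128 and 50 bases upstream, and 1 in the 50 bases after it. Slc30a1 has 1 on each side of its start. The windows of Mtf1 and Slc39a1 hold 0 cores. Among 32851 RefSeq promoter windows of the same 300 bases, 25.7% hold at least 1 core, 7.11% at least 2, 1.97% at least 3 and 0.517% at least 4. A match is a description of the letters, and says nothing of whether a factor binds there.

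The levels differed widely between the 5 genes. The assay counts each captured transcript once, from its 3′ end, so the values are molecules and are not scaled by length. Mt1 stood at 306.0 CPM in the vehicle library (exact 95% Poisson interval 303.9 to 308.1, from 79846 molecules) and at 195.2 CPM in the DFO library (193.6 to 196.8, from 55501 molecules). Mt1 was thus lower in the DFO library by 36.2%, a log2 difference of -0.65. Mt2, the second metallothionein, stood at 13.1 CPM (12.6 to 13.5) with vehicle and 6.99 CPM (6.68 to 7.30) with DFO. That is 46.5% lower, a log2 difference of -0.82. Slc39a1, the importer, stood at 27.1 CPM (26.4 to 27.7) with vehicle and 21.3 CPM (20.7 to 21.8) with DFO, 21.4% lower and a log2 difference of -0.33. For these 3 genes the intervals of the libraries did not overlap, with the DFO library below. The share of all genes with intervals apart at this depth is not given here, so this separation does not set them apart from other genes. Mtf1 stood at 22.3 CPM (21.8 to 22.9) with vehicle and 24.6 CPM (24.1 to 25.2) with DFO, 10.2% higher, a log2 difference of 0.13. Its intervals were apart too, with the DFO library above. Slc30a1 had the lowest level, 3.17 CPM (2.96 to 3.40) with vehicle and 3.31 CPM (3.10 to 3.53) with DFO, and its intervals overlapped. Log2 differences are on the scale of CPM + 1, and the intervals cover counting error only, since 1 library per group leaves no replicate check and no test.

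Read against all genes, the metallothioneins were near the lower end of the differences. Of the 8886 genes averaging at least 5 CPM, 2.58% were lower in the DFO library by 0.25 or more on the log2 scale and 1.4% were higher by that much. Of the 4 members at that level (Slc30a1 was below it), 3 were lower by 0.25 or more, and 0 were higher. Past 0.5, where 0.664% of all genes were lower and 0.0113% higher, Mt1 and Mt2 were lower and 0 members were higher. By sign alone 3 of these 4 members were lower and 1 was higher, against 42.1% and 57.9% of all genes. Counted from the lowest difference, Mt2 was at rank 17, Mt1 at rank 31, Slc39a1 at rank 131 and Mtf1 at rank 7944 of 8886. The median difference of all these genes was 0.019 and their SD was 0.13, so Mtf1 lay within 1 SD of the median. Because the members were picked on this contrast, these counts describe them and support nothing further.

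**Figure D1:**
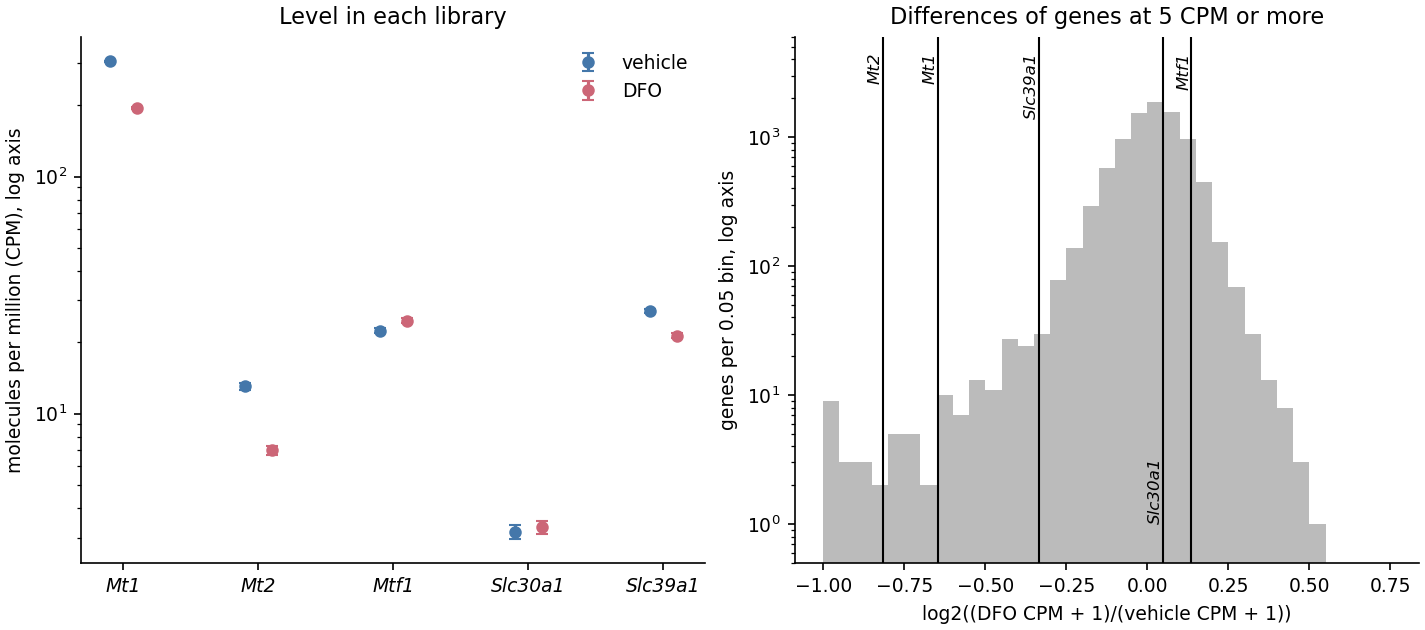
Left, level of each gene in CPM (log axis) in the vehicle and DFO libraries, with exact 95% Poisson intervals, most of them smaller than the points. Right, number of genes (log axis) by log2 difference for the 8886 genes averaging at least 5 CPM, with lines at the 5 genes (Slc30a1 is below 5 CPM) and genes below -1 placed in the leftmost bar. Mt2 at -0.82 and Mt1 at -0.65 sit in the left tail, and Mtf1 at 0.13 and Slc30a1 at 0.048 sit within the bulk.

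The same order was seen in the share of cells with a molecule. To compare libraries at 1 depth, each cell was thinned to 10000 molecules, which left 8357 vehicle and 9419 DFO cells and dropped 351 and 433 shallower ones. Mt1 was then seen in 63.0% of vehicle cells (exact 95% Clopper-Pearson interval 61.9 to 64.0) and 56.3% of DFO cells (55.3 to 57.3), against 78.9% and 72.2% before thinning. Mt2 was seen in 7.19% and 4.34% (13.3% and 9.63% unthinned). Slc39a1 was seen in 22.7% and 18.6% (49.8% and 43.5% unthinned). For these 3 genes the share was lower in the DFO library both ways. Mtf1 was seen in 20.1% of vehicle and 21.4% of DFO cells, and Slc30a1 in 3.05% and 2.99%, with overlapping intervals for both. Free RNA in the droplets can give a molecule to a cell that does not express the gene. No cell type here is known to lack Mt1, so that part was not bounded.

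Mt1 was carried unevenly. The median cell held 3 molecules of Mt1 with vehicle and 2 with DFO, the 90th percentile was 25 and 15, and the highest cell held 210 and 197. The top 10% of cells held 54.6% of all Mt1 molecules in the vehicle library and 51.1% in the DFO library. Cells with 50 or more Mt1 molecules numbered 301 (3.46%) with vehicle and 91 (0.924%) with DFO. The 99th percentile was 82.9 with vehicle and 48 with DFO. These are whole counts of unthinned cells, so the size of the difference at the median and among high cells is not compared. On thinned cells the variance over the mean of Mt1 was 5.99 with vehicle and 4.18 with DFO, and 0 of the 230 and 303 genes of like mean exceeded it (medians 1.10 and 1.06).

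Mt2 was rarer and also uneven, with 32.2% of its molecules in the top 1% of vehicle cells and 38.4% in the top 1% of DFO cells. Its variance over the mean was 2.14 and 1.961, exceeded by 2 of 888 and 3 of 696 genes of like mean. Mtf1 varied about as much as counting alone gives, with a variance over the mean of 1.00 and 1.01. The values were 1.05 and 1.01 for Slc30a1 and 1.15 and 1.04 for Slc39a1, and no cell held more than 12 molecules of Slc39a1.

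The metallothioneins were carried by the same cells more often than their shares alone would give. Across the 8357 thinned vehicle cells, 566 held both Mt1 and Mt2, against 378.6 if the 2 were independent. Across the 9419 thinned DFO cells, 381 held both, against 230.4. Of vehicle cells with Mt2, 94.2% also held Mt1, against 60.6% of cells without Mt2, and for DFO these shares were 93.2% and 54.7%. The share of cells with Mt2 went up with the number of Mt1 molecules in the cell. With vehicle it was 1.13% in cells with 0 Mt1 molecules, 1.54% with 1, 5.53% with 2 to 4, 18.1% with 5 to 9 and 42.2% with 10 or more. With DFO the same steps gave 0.681%, 1.74%, 5.60%, 15.8% and 38.6%. At an equal number of Mt1 molecules, the Mt2 shares of the libraries had overlapping intervals in each of the 5 steps.

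**Figure D2:**
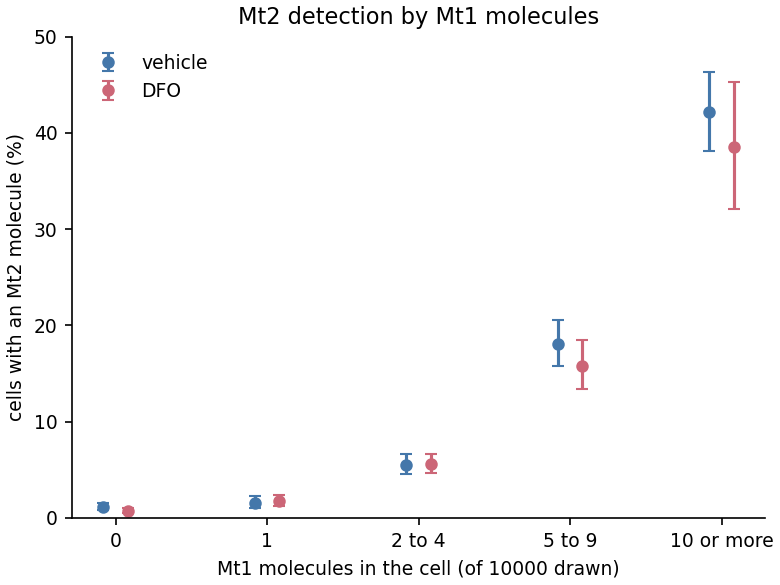
Share of cells with an Mt2 molecule (percent, with exact 95% Clopper-Pearson intervals) by the number of Mt1 molecules in the same cell, all cells thinned to 10000 molecules, for the vehicle and DFO libraries. The share goes from 1.13% to 42.2% with vehicle and from 0.681% to 38.6% with DFO, and the intervals of the libraries overlap at each step.

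Across all cells of a library, the Pearson correlation of log-scaled Mt1 and Mt2 was 0.51 (n = 8708 vehicle cells) and 0.43 (n = 9852 DFO cells). These are descriptions, since the cells of a library share its preparation and differ in depth. Within single clusters of cells it ranged from 0.27 to 0.56 with vehicle and from 0.26 to 0.47 with DFO, and was highest in the megakaryocyte-like cluster in both libraries. Every other pair among the 5 genes had a correlation between -0.0098 and 0.10, which in counts this sparse is no finding. In particular Mt1 and Mtf1 gave 0.041 and 0.052, and Mt1 and Slc30a1 gave 0.050 and 0.058.

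The genes most like Mt1 across cells included 3 of the megakaryocyte markers, Pf4, Itga2b and Gp5. Among 10300 genes seen in at least 5% of cells of both libraries, those among the highest by mean correlation with Mt1 included Pf4 (0.61 in vehicle cells, 0.50 in DFO cells), Rap1b (0.61 and 0.50), Itga2b (0.58 and 0.51), Prkar2b, Clint1, Rabgap1l, Gp5, Tmsb4x and Mt2. Pf4 encodes the chemokine platelet factor 4, Itga2b encodes the integrin subunit CD41, and Gp5 encodes a platelet surface glycoprotein. For Mt2 the most alike included Mt1, Rap1b, Cavin2, Pf4, Tesc, Ehd3, Rabgap1l, Tmsb4x and Treml1, a receptor of platelet granules. Pf4 itself stood at 1447 CPM with vehicle and 592 CPM with DFO. The summed level of the megakaryocyte markers correlated with Mt1 at 0.63 and 0.53 and with Mt2 at 0.33 and 0.26, while the neutrophil and monocyte markers gave -0.30 and -0.27 with Mt1 and the erythroid markers -0.16 and -0.10. Inside single clusters Mt1 correlated less with the megakaryocyte markers, at 0.08 to 0.31 with vehicle and 0.10 to 0.25 with DFO. The exception was cluster 6, of shallow cells, at 0.58 and 0.46. Mt1 also correlated with the mitochondrial share of molecules in a cell, at -0.30 and -0.24, and with log molecules per cell, at 0.20 and 0.15.

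The cells were grouped into 7 clusters from both libraries together, on variable genes that left out the 5 members and the other zinc, copper and glucocorticoid genes. Of these, 3 could be named from marker genes, as HSC-like (cluster 0, led by Hist1h2bc, Ltb, Sult1a1 and Procr), megakaryocyte-like (cluster 2, led by Serpinb2, Cavin2, Pf4 and Treml1) and erythroid-like (cluster 5, led by Klf1, Aqp1 and Gata1, but also by Siglecf and Cpa3, known from eosinophils and mast cells). The other clusters are given by number. The HSC-like name has the weakest marker evidence. Detected HSC markers had a mean log2 fold of 0.39 over other cells, against 2.55 for megakaryocyte markers in cluster 2. At a finer resolution of 1, the HSC-like cluster held 479 vehicle and 678 DFO cells, against 2306 and 2731 here. Cluster 1 was led by the mitotic genes Nusap1 and Ube2c, cluster 3 by Igfbp7 and Csf3r, and cluster 4 by Slc7a8 and Gata1. Cluster 6 held shallow cells, with a median of 6938 molecules and a mitochondrial share of 6.86%.

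Mt1 was highest in the megakaryocyte-like cluster in both libraries. With vehicle it stood there at 803.9 CPM (797.0 to 810.9), followed by cluster 6 at 368.4, cluster 4 at 247.5, the erythroid-like cluster at 241.7, cluster 3 at 112.0, the HSC-like cluster at 103.0 and cluster 1 at 89.3 CPM. In this order the intervals of neighbours overlapped only between cluster 4 and the erythroid-like cluster. With DFO the order was the megakaryocyte-like cluster at 589.8 CPM (582.8 to 597.0), then cluster 6 at 271.6, cluster 4 at 229.3, the erythroid-like cluster at 196.4, cluster 3 at 105.1, cluster 1 at 90.4 and the HSC-like cluster at 81.0 CPM, with all neighbours apart. The highest cluster was 9.003 times the lowest with vehicle and 7.28 times with DFO. The megakaryocyte-like cluster held 65.1% of Mt1 molecules with 24.8% of all molecules in the vehicle library, and 47.7% with 15.8% in the DFO library.

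Within clusters Mt1 was lower with DFO in 6 of 7, with intervals apart in all 6. The log2 difference was -0.45 in the megakaryocyte-like cluster, -0.44 in cluster 6, -0.34 in the HSC-like cluster, -0.30 in the erythroid-like cluster, -0.11 in cluster 4 and -0.09 in cluster 3. In the mitotic cluster 1 the values were 89.3 and 90.4 CPM, with overlapping intervals. Each of these differences was smaller in size than the -0.65 over all cells. The difference between clusters in this contrast was not tested. The intervals hold counting error only, while Mt1 varied between thinned cells with a variance over the mean of 5.99 and 4.18. Here and in the bins below, intervals apart therefore leave out the spread between cells.

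Mt2 followed the same pattern at a lower level. In the megakaryocyte-like cluster it stood at 38.7 CPM with vehicle and 26.9 with DFO, and that cluster held 73.2% and 60.9% of all Mt2 molecules. Next came cluster 6 with 14.7 and 8.72 CPM, where intervals overlapped, the erythroid-like cluster with 9.09 and 4.98 CPM, and cluster 4 with 8.47 and 6.52 CPM. The HSC-like cluster had 3.67 and 2.10 CPM, cluster 3 had 3.16 and 2.06 CPM, and cluster 1 had 2.24 and 2.83 CPM, again with overlapping intervals. Among neighbours in the vehicle order, cluster 4 and the erythroid-like cluster overlapped, as did cluster 3 with both the HSC-like cluster and cluster 1. Among neighbours in the DFO order, the megakaryocyte-like cluster stood apart from the next, and the erythroid-like cluster from cluster 1, while the others overlapped. Mt2 was thus lower with DFO in 6 of 7 clusters, with intervals apart in 5. For every 100 Mt1 molecules there were 4.81 of Mt2 with vehicle and 4.57 with DFO in the megakaryocyte-like cluster, and 2.51 to 3.99 with vehicle and 1.959 to 3.21 with DFO in the others.

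**Figure D3:**
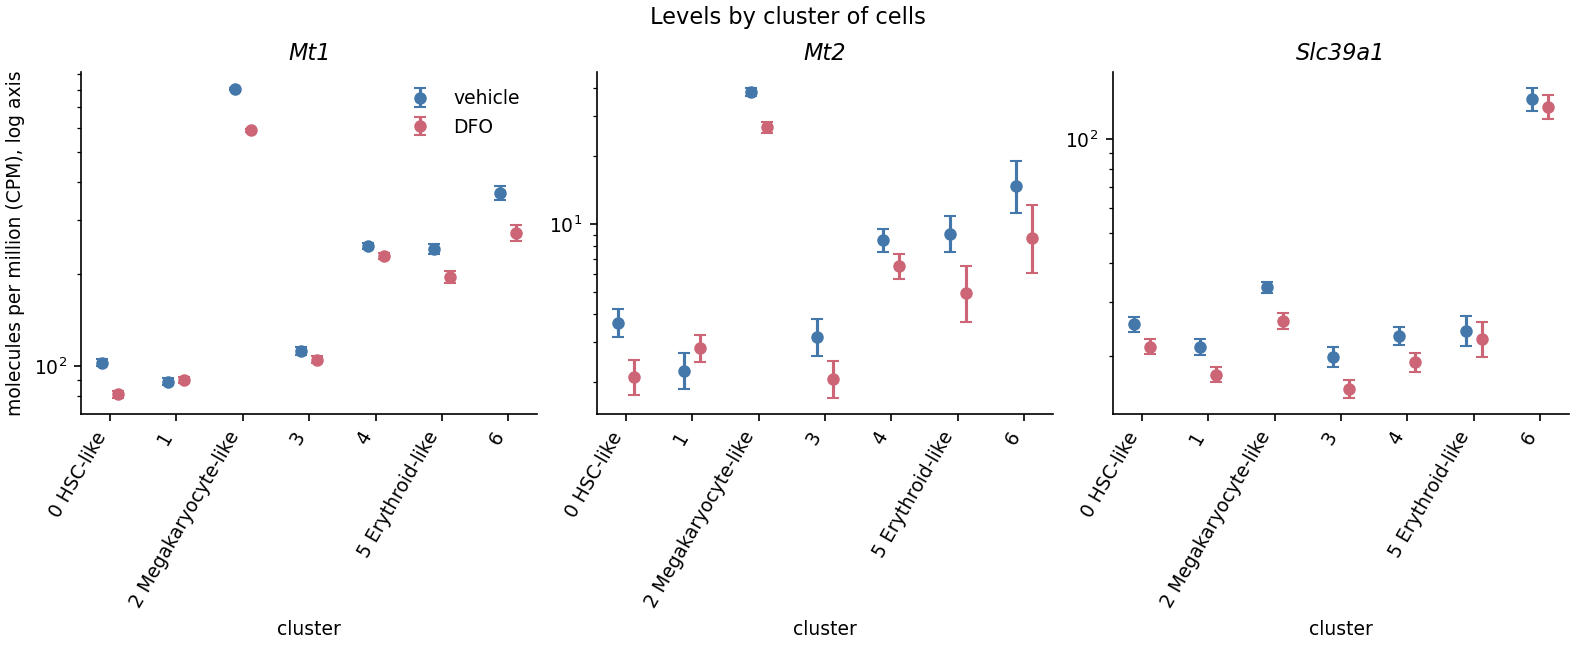
Level of Mt1, Mt2 and Slc39a1 in CPM (log axes) in each of the 7 clusters, for the vehicle and DFO libraries, with exact 95% Poisson intervals. Mt1 and Mt2 are highest in the megakaryocyte-like cluster (803.9 and 38.7 CPM with vehicle), and Slc39a1 is highest in cluster 6 (134.3 CPM with vehicle).

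Since megakaryocyte markers moved with Mt1 and Mt2 and were lower in the DFO library, the libraries were also compared at like marker level. Cells were put into 5 bins of equal number over both libraries by their summed megakaryocyte marker level, which is a range of a score and not a cell type. Pf4 alone made up 1447 of the 2084 CPM of these markers with vehicle and 592 of 1088 CPM with DFO. Like marker level thus means mostly like Pf4 level, and Pf4 is among the genes most like Mt1. The top bin took 2432 vehicle cells (27.9%) and 1280 DFO cells (13.0%). Just below and just above its lower bound, the bins of a finer split into 20 held 457 and 537 vehicle cells and 471 and 391 DFO cells. In the 4 lower bins Mt1 stood at 80.7, 95.1, 129.9 and 243.7 CPM with vehicle and at 77.6, 97.7, 129.8 and 251.4 CPM with DFO, and the intervals overlapped in each. In the top bin Mt1 stood at 673.6 CPM with vehicle and 551.7 with DFO, a log2 difference of -0.29 with intervals apart, but there the mean marker level also differed, at 48.3 and 38.6 per 10000 molecules. Mt2 had overlapping intervals in the same 4 lower bins and stood at 32.2 and 24.95 CPM in the top one.

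In the split into 20 bins, Mt1 was lower with DFO in 9 of 20, with intervals apart in 4, and higher with intervals apart in 3. In the highest bin Mt1 stood at 936.9 CPM with vehicle and 765.0 with DFO, a log2 difference of -0.29, at mean marker levels of 94.2 and 87.8 per 10000 molecules. In the next bin it stood at 686.5 and 603.5 CPM, a difference of -0.19, at marker levels of 41.7 and 40.9. Mt2 was lower in 11 of 20 bins, with intervals apart in 3, and higher with intervals apart in 1 (bin 17, 12.1 and 19.2 CPM). With both libraries weighted to equal numbers in the 20 bins, the difference of Mt1 was -0.08 and that of Mt2 was -0.14, against -0.65 and -0.82 for the cells as found. With the megakaryocyte-like cluster left out, they were -0.23 and -0.41. At like marker level the difference of both genes was thus smaller than over the cells as found. The top of the 5 bins held 27.9% of vehicle and 13.0% of DFO cells, and in that bin both genes were also lower with DFO. What lies behind either was not tested. Effects of DFO, of the culture and of the library preparation cannot be told apart with 1 library per group.

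**Figure D4:**
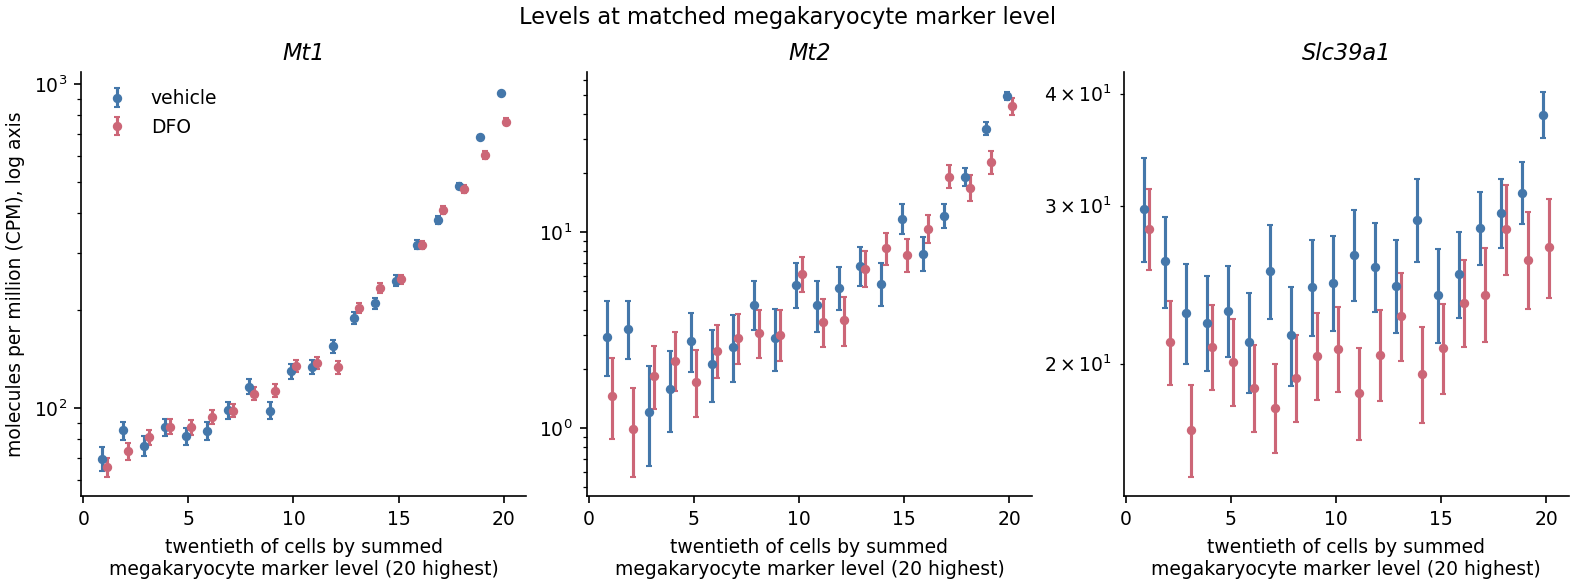
Level of Mt1, Mt2 and Slc39a1 in CPM (log axes, with exact 95% Poisson intervals) in 20 bins of equal cell number by summed megakaryocyte marker level (bin 20 highest), for the vehicle and DFO libraries. Mt1 climbs with marker level in both libraries, lower with DFO with intervals apart in 4 bins (2, 12, 19 and 20) and higher in 3 (9, 14 and 17), while Slc39a1 is lower with DFO in all 20 bins, with intervals apart in 5.

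Other splits of the cells gave the following values. Mt1 and Mt2 were lower with DFO in each of 3 cell cycle phases, in cells called female, male, of both sexes or uncalled, and in each of 5 bins of molecules per cell, with intervals apart in every case. By mitochondrial share the picture differed. Mt1 was lower with intervals apart in the lowest and the highest of 5 bins (540.2 and 458.4 CPM, then 137.2 and 91.8 CPM), and higher with intervals apart in bins 2 and 3 (252.0 and 288.7 CPM, then 148.3 and 171.1 CPM). Mt2 was lower in 4 of 5, with intervals apart in 3. The lowest bin of mitochondrial share held 2714 vehicle and 998 DFO cells. The part of mitochondrial share in the difference was not tested beyond these bins.

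Slc39a1 had another distribution over cells. It was highest in the shallow cluster 6, at 134.3 CPM with vehicle (123.2 to 146.1) and 126.6 CPM with DFO (115.8 to 138.1), where it was the leading gene by fold although it took no part in the clustering. Cluster 6 held 7.63% of its molecules with vehicle and 8.40% with DFO, with 1.54% and 1.41% of all molecules. The megakaryocyte-like cluster came next at 33.3 and 26.0 CPM, and the other 5 clusters lay between 19.9 and 25.4 CPM with vehicle and between 15.7 and 22.7 CPM with DFO. Among the clusters below the megakaryocyte-like one, neighbours overlapped with vehicle, and with DFO the megakaryocyte-like cluster also overlapped with the erythroid-like one. Slc39a1 was lower with DFO in 7 of 7 clusters, with intervals apart in 5, the exceptions being cluster 6 and the erythroid-like cluster.

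The difference of Slc39a1 moved less with megakaryocyte marker level than those of the metallothioneins. It was lower with DFO in 5 of 5 marker bins, with intervals apart in each and log2 differences from -0.32 to -0.20. Weighted to equal numbers in the 20 bins its difference was -0.26, against -0.33 for the cells as found. Its most alike genes across cells were Actb (0.37 in vehicle cells, 0.38 in DFO cells), which encodes cytoskeletal actin, then Cbx3 (0.31 and 0.29), Rpgrip1 (0.29 and 0.30), Gm42418 (0.22 and 0.26) and Rps12 (0.19 and 0.25). Inside single clusters the correlation with Actb was lower, at 0.11 to 0.28 with vehicle and 0.13 to 0.24 with DFO. Rpgrip1 and Gm42418 were also leading genes of the shallow cluster 6. The correlation of Slc39a1 with log molecules per cell was -0.21 and -0.27, and with mitochondrial share 0.17 and 0.25, so it was higher in shallow cells. The part of cell quality in its level was not tested. With each cell given equal weight its difference was -0.24.

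Mtf1, the sensor, was nearly even over clusters. Its level ran from 17.9 CPM in cluster 1 to 28.6 CPM in cluster 6 with vehicle, and from 21.4 to 29.4 CPM in the same clusters with DFO. With vehicle its interval in cluster 1 (16.8 to 19.1 CPM) lay below those in the HSC-like (20.8 to 23.3) and megakaryocyte-like (24.1 to 26.6) clusters. Mtf1 was higher with DFO in 7 of 7 clusters, with intervals apart in 2, which were cluster 1 (17.9 and 21.4 CPM) and the erythroid-like cluster (19.6 and 26.0 CPM). In the megakaryocyte-like cluster, where its target genes Mt1 and Mt2 were highest, Mtf1 stood at 25.3 and 27.9 CPM. The genes most like it, Srm, Ncl, Nolc1, Cacybp and Srsf7, reached correlations of at most 0.13.

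Slc30a1, the exporter and a further known target, ran from 2.42 CPM in the HSC-like cluster to 7.22 CPM (4.84 to 10.4) in cluster 6 with vehicle, and from 2.35 to 4.67 CPM with DFO. In the megakaryocyte-like cluster it stood at 3.96 and 4.67 CPM. Its intervals overlapped between libraries in all 7 clusters, so a difference of its size was not detectable at this depth. Its most alike genes, among them Serpina3g, Timp3, Zfpm1 and Egr1, had correlations of at most 0.069. Over all cells neither Mtf1 nor Slc30a1 was lower in the DFO library, in which Mt1 and Mt2 were, but on cells thinned to 10000 molecules the difference of Slc30a1 turned to -0.044.

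The other genes of zinc transport are read against all genes, of which 2.58% were lower and 1.4% higher by 0.25 or more. Of 10 exporters of the Slc30 family, 7 were in the tables and 4 stood at 5 CPM or more, and 0 of these differed by 0.25 or more. The Golgi transporters Slc30a5 (24.8 CPM with vehicle, 25.9 with DFO) and Slc30a7 (19.96 and 21.6 CPM) had differences of 0.06 and 0.11, Slc30a6 (12.4 and 12.8 CPM) had 0.05, and Slc30a9 (21.0 and 18.8 CPM) had -0.16. Slc30a4 stood at 1.98 and 2.42 CPM and Slc30a2 at 0.211 and 0.141 CPM. The median of the 4 was 0.05, against 0.019 over all genes.

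Of 14 importers of the Slc39 family, 12 were in the tables and 9 stood at 5 CPM or more. One of the 9, Slc39a1, was lower by 0.25 or more, 0 were higher by that much, and their median was 0.04. Slc39a7, which releases zinc from the endoplasmic reticulum, had the highest level of the family (50.4 and 51.7 CPM), followed by Slc39a10 (32.1 and 32.4 CPM). Slc39a6 stood at 19.5 and 20.5 CPM, Slc39a9 at 13.9 and 14.96 CPM, and Slc39a3 at 7.31 and 7.32 CPM. Among the 9 at 5 CPM or more, the highest differences were those of Slc39a14 (5.001 and 5.94 CPM, 0.21) and Slc39a11 (16.7 and 19.4 CPM, 0.20), and the lowest after Slc39a1 was Slc39a13 (8.46 and 7.89 CPM, -0.09). Below 5 CPM were Slc39a8 (3.26 and 3.95 CPM, 0.22), Slc39a4 (1.20 and 0.971 CPM, -0.16) and Slc39a2 (0.138 and 0.120 CPM). Mt3, the remaining metallothionein in the tables, had 68 and 63 molecules, 0.261 and 0.222 CPM.

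**Figure D5:**
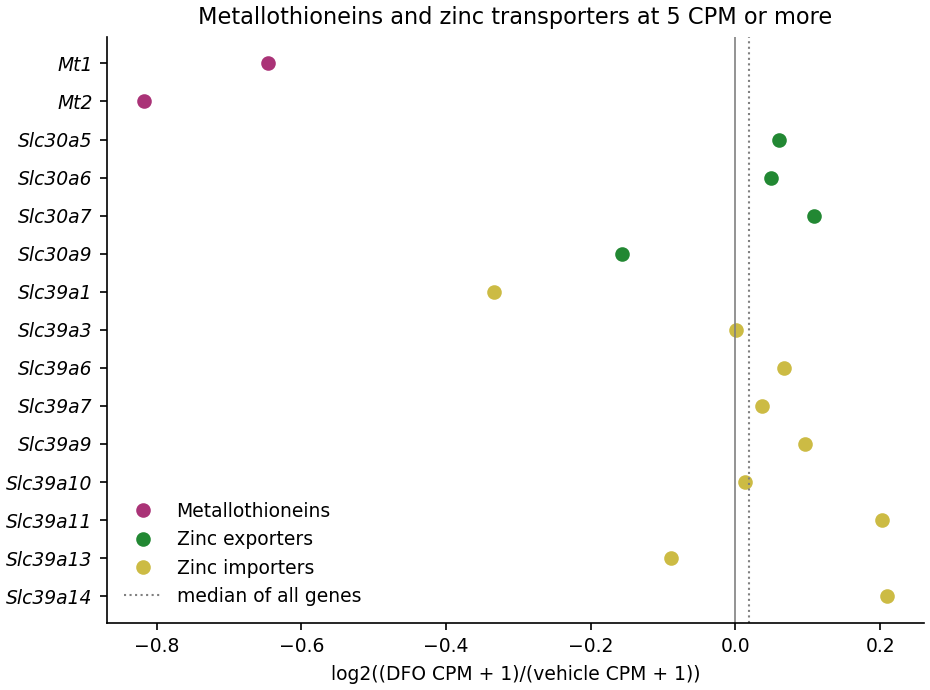
Log2 difference, DFO against vehicle on the scale of CPM + 1, of the metallothioneins, zinc exporters and zinc importers averaging at least 5 CPM, with a dotted line at the median of all genes (0.019). Mt2 (-0.82), Mt1 (-0.65) and Slc39a1 (-0.33) lie to the left, and the other transporters lie between -0.16 and 0.21.

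Of 6 genes in the tables listed as targets of the zinc-sensing factor beside the metallothioneins, 5 stood at 5 CPM or more, with a median difference of -0.02. One, Csrp1, which encodes a LIM domain protein, was lower by 0.25 or more, at 108.9 CPM with vehicle and 83.4 with DFO, a difference of -0.38. Ndrg1 stood at 34.6 and 29.2 CPM, a difference of -0.24. Gclc, which encodes the catalytic subunit for glutathione synthesis, stood at 31.2 and 32.2 CPM (0.05), and Slc39a10 differed by 0.01. By sign 3 of these 5 genes were lower and 2 were higher, against 42.1% and 57.9% of all genes, and only Gclc lay above the median of all genes, 0.019. The list was not split by whether the factor raises or lowers a gene, so its median gives no direction for the factor.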

How the data were processed

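Single-cell RNA was measured in 2 libraries, 1 per group, grouped by the sample labels. Tools named in the submitters' processing notes are FastQC 0.11.9, Trim Galore 0.6.5 and Cell Ranger 3.0.2, with mm10. Annotation, cell filter and strand setting: not given in the sources used here. The authors deposited natural log values per gene and cell, a unit read from the values: each is ln(1 + 27408 × a gene's molecules over the cell total). Undoing this gave whole numbers (tolerance 0.05) for all 44114455 vehicle and 49560434 DFO entries above 0, and these molecules were used. Each library had a median of 27114 molecules per cell or more, so counting intervals are narrow. They leave out variation between cells, cultures and library preparations.

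Molecules were summed per library or cluster and scaled to CPM. Differences are log2 ratios, DFO over vehicle, after adding 1 CPM to both. No test was run, since a group is 1 library. The script was tested on simulated data. Clustering used scanpy 1.11.5 and leidenalg 0.10.2 in Python 3.11.15 (2000 variable genes, 30 components, 15 neighbours, resolution 0.5, no integration). Genes entering the clustering excluded the zinc, copper, glucocorticoid, cell cycle, mitochondrial and ribosomal protein genes. Naming a cluster needed at least 3 detected markers, with at least 2 among its 10 leading genes. That second condition was set after the clusters were seen. No doublet caller was run. Sex was called per cell from Xist (at least 5 molecules) and 4 Y-linked genes (at least 2). Leaving out the 211 vehicle and 335 DFO cells that met both was an alternative. These had medians of 54265 and 52113 molecules, against 27805.5 and 27114 over all cells. Any barcode holding 2 cells of the same sex would stay in under that alternative.

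The text names the 5 members, the zinc transporters and metallothioneins, the 2 highest and 2 lowest genes of each list at 5 CPM or more, the genes most like a member by mean correlation, and leading genes of clusters. A gene that this rule names is not reported here. A few further genes of the short lists are named for their level and were chosen after their values were seen. The members and lists were chosen with earlier results of these data known. Chosen after seeing the data were the omission of the shallow and of the megakaryocyte-like cluster, and the weighting to 5 or 20 bins of megakaryocyte marker level. Motif cores were first sought in the 250 bases before the start, and the search was widened to the full 300 bases of the RefSeq table after that result had been seen. All 5 genes matched that table.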

Additional observations from a re-analysis of the deposited data

How the results depend on the processing

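No paired analysis was possible because each group has 1 library. Mt1, Mt2 and Slc39a1 were lower in the DFO library under all 15 alternatives, with ranges of -0.68 to -0.08, -0.90 to -0.14 and -0.41 to -0.24. None of these alternatives balanced the libraries for mitochondrial share. In bins 2 and 3 of that share Mt1 was higher with DFO, by 0.20 and 0.21, with intervals apart. Mtf1 was higher under all 15, from 0.089 (male cells only) to 0.16. Slc30a1 ran from -0.04 to 0.13, with the sign turned, at -0.044, for cells thinned to 10000 molecules.

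For Mt1, Mt2 and Slc39a1 in turn, the difference was -0.62, -0.44 and -0.24 with a pseudocount of 10, -0.56, -0.73 and -0.24 with each cell weighted equally, -0.37, -0.50 and -0.28 with equal cluster shares, and -0.61, -0.81 and -0.41 in male cells only. Without the megakaryocyte-like cluster it was -0.23, -0.41 and -0.28. At equal megakaryocyte marker level it was -0.17, -0.27 and -0.27 with 5 bins, and -0.084, -0.14 and -0.26 with 20 bins. Mt1 gave -0.67 scaled by the median ratio of genes, -0.59 thinned and -0.68 in female cells. Mt2 gave -0.82 under the stricter cell filter and without the cluster of lowest depth, and -0.80 without cells of both sexes. The pseudocount and the median ratio use the same cells, and the other settings select, thin or reweight them. What sets the size of each shift was not tested.

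The share of cells, DFO minus vehicle in percentage points, was -8.14 for Mt1 thinned to 5000 molecules, -3.71 unthinned and -1.60 at 5000 for Mt2, -6.33 and -2.75 for Slc39a1, and 0.10 for Slc30a1 unthinned, a turned sign. The correlation of Mt1 with Mt2 was 0.44 and 0.36 as Spearman's rho and 0.39 and 0.30 on thinned cells, for vehicle and DFO. The median of the iron uptake and storage list turned to 0.0063 with a minimum of 20 CPM. At resolution 1, Mtf1 was lower with DFO in 7.69% of clusters, against 0 at resolution 0.5.

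Depth limits Slc30a1 and Mt2 most, since they were seen in few cells, and the intervals hold counting error only. Effects of DFO, of the culture and of the library preparation cannot be told apart.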

Other observations

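Lists of copper handling and of other signals known to act on metallothionein genes are given beside all genes, of which 2.58% were lower and 1.4% higher by 0.25 or more. Of 8 copper-handling genes at 5 CPM or more, 0 differed by 0.25 or more, with a median of -0.02. Slc31a1, the main copper importer, stood at 18.9 CPM with vehicle and 17.0 with DFO (-0.14), and Sod1, a copper and zinc enzyme that lies next to it at the low end, at 65.9 and 62.7 CPM (-0.07). Sco2, a copper chaperone of cytochrome c oxidase, stood at 61.4 and 67.4 CPM (0.13), and Cox17, another such chaperone, at 28.8 and 30.1 CPM (0.06). The copper chaperone Atox1 had 269.6 and 262.4 CPM.

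Of 8 glucocorticoid-response genes at that level, Zbtb16 was lower by 0.25 or more (9.03 and 6.99 CPM, -0.33), 0 were higher by that much, and the median was -0.10. Tsc22d3 stood at 74.2 and 68.5 CPM (-0.11) and Fkbp5 at 64.8 and 65.0 CPM. The second lowest was Ddit4 (26.0 and 23.0 CPM, -0.17), and the highest were Dusp1 (5.001 and 5.53 CPM, 0.12) and Per1 (18.2 and 18.6 CPM, 0.03). Of 8 genes of the oxidative stress response driven by NRF2, 0 differed by 0.25 or more and the median was 0.05. Hmox1, which degrades heme, stood at 7.12 and 5.89 CPM (-0.24), and G6pdx at 24.4 and 22.4 CPM (-0.12). The highest were Nqo1 at 12.4 and 13.7 CPM (0.14) and Srxn1 at 15.5 and 17.2 CPM (0.14).

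Of 7 iron uptake and storage genes, 0 differed by 0.25 or more. The transferrin receptor gene Tfrc stood at 57.8 CPM with vehicle and 67.7 CPM with DFO (0.23), with intervals apart, and the ferritin heavy chain gene Fth1 at 3261 and 3246 CPM (-0.0066). Slc11a2, an iron importer, had 10.3 and 10.6 CPM (0.05), and the lowest were Steap3 (13.1 and 12.4 CPM, -0.07) and Aco1 (6.30 and 6.13 CPM, -0.04).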
